A study of Homo sapiens with 12 samples.

Results

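The clusters described here are the PAR-CLIP clusters that lay in introns close to an exon. On its own strand, the midpoint of such a cluster fell in an intron of a protein-coding gene of GENCODE release 44, in no exon of any gene, and at most 200 nt from the nearest annotated exon edge of that gene. On chromosomes 1 to 22, X and Y, 1591 of 96139 clusters met this definition. Merging overlapping intervals across libraries gave 1021 sites in 885 genes. A further 21478 clusters lay deeper in introns of protein-coding genes and served as the comparison.

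The clusters came from 12 libraries of wildtype HepG2, a human liver cancer cell line. RNA was labelled with 4-thiouridine, crosslinked to protein by ultraviolet light and cut with RNase T1, an enzyme that cuts after G. IGF2BP1 and IGF2BP2 had 2 libraries each and IGF2BP3 had 4, of which 2 carried the label bio2. METTL1 and WDR4 had 2 libraries each. The study treats the IGF2BP proteins as readers of internal m7G, and METTL1 with its partner WDR4 as the enzyme that writes it. No library of input RNA or of a mock precipitation was used here, so no background level measured in the same way stands beside these values. Each library held 4157 to 15051 clusters on these chromosomes, and exons of 3 to 8 of 10 liver marker genes carried a cluster in a library. The growth protocol describes plates seeded per replicate, but the labels do not say how bio2 relates to the other IGF2BP3 libraries, so p-values measure the spread between libraries, which may be technical.

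An intron begins at the 5' splice site, usually with the letters GT in DNA, and ends at the 3' splice site, usually with AG after a stretch rich in pyrimidines. U1 snRNP pairs with the 5' splice site, and U2AF binds the pyrimidine stretch and the AG. Intron RNA is normally removed in the nucleus, so a contact there is a contact with unspliced or partly spliced RNA, or with another transcript that keeps the same sequence. IGF2BP proteins are known mainly for binding mature mRNA through KH domains, which favour CA-rich sequence.

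The nearest exon edge was not always a splice site. It was a 5' splice site for 619 clusters and a 3' splice site for 485. For 255 clusters it was the outer end of a transcript that stops inside the intron of a longer one, and for 232 the outer start of a transcript that begins there. These are called transcript ends and transcript starts below. At the splice sites used, 406 of 416 introns began with GT and 319 of 321 ended with AG. The name "close to splice sites" therefore held for the first and second of these kinds, and results that turn on the kind of edge are given for each. Transcript ends were held by a retained-intron transcript, a model that keeps an intron within an exon, for 29.8% of the clusters nearest to one, and transcript starts for 31.9%. Such a transcript also held the edge for 23.6% of clusters nearest to a 5' splice site and 19.6% at a 3' splice site. A transcript of the protein-coding type held the edge for 45.1% of clusters at transcript ends and 48.3% at starts.

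The sequences of the recurrent single-copy sites nearest to splice sites are shown first, since they let the position of each site be seen directly. The edges of a site need not mark the contact, since most clusters began just after a G, where RNase T1 cuts. A site is single-copy when the central 20 nt of its clusters occur once in hg38. The sites below lay at a median of 80 nt or less from a splice site, had a cluster in at least 5 libraries and did not run into the exon. They were chosen after their values were seen. Each line runs 5' to 3' in hg38 letters, from the first intron base at a 5' splice site to the end of the site, and the capitals mark the site.
MATR3 (chr5:139325663-139325719, plus strand): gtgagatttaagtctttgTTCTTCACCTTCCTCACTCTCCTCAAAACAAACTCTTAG
TASOR (chr3:56682619-56682675, minus strand): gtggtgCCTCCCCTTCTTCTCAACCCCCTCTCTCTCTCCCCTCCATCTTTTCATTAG
EPCAM (chr2:47385211-47385287, plus strand): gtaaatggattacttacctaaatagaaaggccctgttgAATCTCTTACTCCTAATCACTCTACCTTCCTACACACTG
GGA2 (chr16:23519525-23519586, minus strand): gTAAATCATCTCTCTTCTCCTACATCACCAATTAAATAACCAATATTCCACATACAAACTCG

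At 3' splice sites the lines run from the start of the site to the last intron base, and the capitals again mark the site.
RPL23A (chr17:28722658-28722722, plus strand): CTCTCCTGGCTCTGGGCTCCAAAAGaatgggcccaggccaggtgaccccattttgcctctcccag
ADH4 (chr4:99143072-99143117, minus strand): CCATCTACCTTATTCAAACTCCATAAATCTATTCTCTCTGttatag
TLK2 (chr17:62597114-62597219, plus strand): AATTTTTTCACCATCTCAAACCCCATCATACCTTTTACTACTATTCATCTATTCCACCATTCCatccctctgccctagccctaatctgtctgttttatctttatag
TPM1 (chr15:63062533-63062575, plus strand): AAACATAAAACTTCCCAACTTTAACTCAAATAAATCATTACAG

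At the 5' splice site, the GGA2 site began at the second intron base and the TASOR site at the seventh, while 18 intron bases preceded the MATR3 site and 38 the EPCAM site. The TASOR site, in a gene for a subunit of the HUSH silencing complex, was 88.2% pyrimidine and had clusters in 8 libraries, 5 of IGF2BP and 3 of METTL1 and WDR4. The MATR3 site, in the gene of the nuclear RNA-binding protein matrin 3, was 71.8% pyrimidine and had clusters in 7 of 8 IGF2BP libraries and in 1 of 4 others. The EPCAM and GGA2 sites, in genes for an epithelial adhesion molecule and a Golgi sorting adaptor, had clusters in 6 and 5 IGF2BP libraries and in none of METTL1 or WDR4.

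At the 3' splice site, the TPM1 site reached the terminal AG itself, in the gene of an actin-binding tropomyosin. The ADH4 site, in a liver alcohol dehydrogenase gene, ended 6 bases before the exon and was 70.0% pyrimidine. The TPM1 and ADH4 sites, and a site in the gene of the chromatin assembly kinase TLK2, each had clusters in 5 IGF2BP libraries and in none of the others. The RPL23A site, in a ribosomal protein gene whose intron also holds a small nucleolar RNA gene, was the exception, with clusters in 3 IGF2BP libraries and all 4 METTL1 and WDR4 libraries.

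The recurrent single-copy sites nearest to transcript ends or starts, with clusters in at least 8 libraries, are shown because several of the most recurrent sites were of these kinds. Each line holds the whole site, and capitals mark the tetramers CATA, CATC and CATT, which correspond to CAUH in RNA.
COX11 (chr17:54959069-54959107, minus strand): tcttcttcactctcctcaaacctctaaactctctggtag
SGO1 (chr3:20169256-20169320, minus strand): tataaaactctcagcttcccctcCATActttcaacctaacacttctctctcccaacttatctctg
AIG1 (chr6:143190732-143190779, plus strand): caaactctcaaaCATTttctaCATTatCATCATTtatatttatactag
TLK1 (chr2:171045014-171045056, minus strand): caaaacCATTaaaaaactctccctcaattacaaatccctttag
ETS2 (chr21:38805833-38805891, plus strand): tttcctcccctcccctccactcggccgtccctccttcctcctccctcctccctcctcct
METTL8 (chr2:171332818-171332875, minus strand): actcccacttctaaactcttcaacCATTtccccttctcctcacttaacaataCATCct

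COX11, an assembly factor of cytochrome c oxidase, and SGO1, a guardian of sister chromatid cohesion, had clusters in 10 libraries at sites whose median distance from the transcript end was 111 and 200 nt. AIG1, a hydrolase of fatty acid esters, had clusters in all 8 IGF2BP libraries and in none of METTL1 or WDR4, and its site held 4 of the tetramers. TLK1, a chromatin assembly kinase, had clusters in 6 IGF2BP and 2 WDR4 libraries. The ETS2 site, in a transcription factor gene, was 93.2% pyrimidine and held none of the tetramers. The METTL8 site, in the gene of an RNA methyltransferase, held 2.

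METTL1 and WDR4 libraries held a larger share of clusters near exon edges than IGF2BP libraries, and of intron clusters at any distance. The share of all clusters of a library was 1.07% and 1.04% for IGF2BP1, 1.03% and 1.22% for IGF2BP2, and 1.21% and 0.962% for IGF2BP3. In the bio2 libraries of IGF2BP3 it was 1.13% and 1.17%. It was 2.98% and 2.87% for METTL1, and 2.78% and 2.57% for WDR4. Every METTL1 and WDR4 library lay above every IGF2BP library, and the 95% Wilson intervals of single libraries, which cover counting error only, reached at most 1.51% among the latter and at least 2.25% among the former. The means were 1.10% ± 0.0932 (SD, n = 8) and 2.80% ± 0.175 (SD, n = 4). The difference of -1.70 percentage points had an exact permutation p of 0.00202, two-sided, the smallest that 495 arrangements allow, and an adjusted p of 0.00808 over the 12 comparisons made. With proteins as units the difference was -1.70 points with an exact p of 0.10, the smallest that 5 proteins allow.

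**Figure D1:**
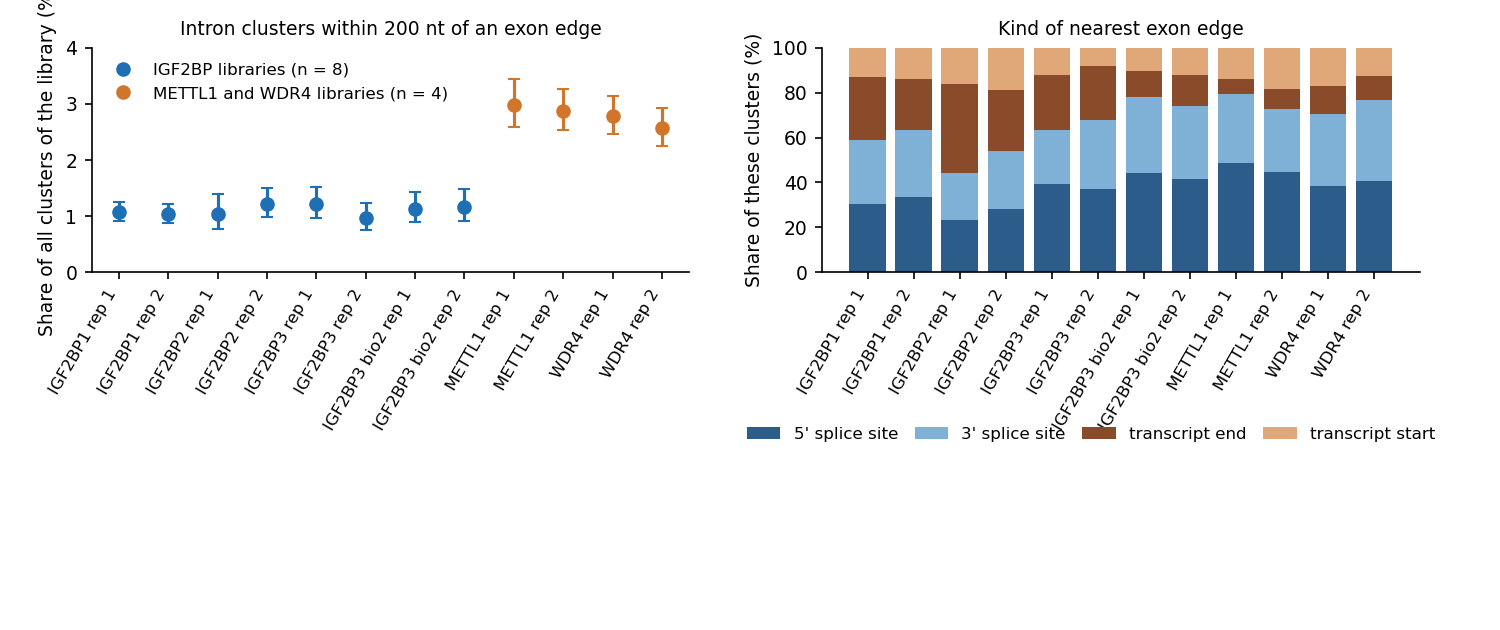
Left, the share of each library's clusters that lay in an intron within 200 nt of an exon edge, in percent, with 95% Wilson intervals. Right, those clusters divided by the kind of the nearest exon edge, in percent. The 4 METTL1 and WDR4 libraries sit between 2.57% and 2.98%, above all IGF2BP libraries, and transcript ends take the largest share, 39.5%, in IGF2BP2 replicate 1.

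Intron clusters at any distance averaged 2939 of 7994.5 clusters in METTL1 and WDR4 libraries. In IGF2BP libraries they averaged 1414 of 8020. Taken among intron clusters alone, the classes overlapped in the share near an edge. The share of intron clusters that lay near an edge was 6.69% ± 1.63 (SD, n = 8) for IGF2BP and 7.71% ± 0.960 (SD, n = 4) for METTL1 and WDR4, an exact permutation p of 0.257. The bio2 libraries, at 9.03% and 9.53%, were the highest of all 12, while the other IGF2BP libraries lay between 5.35% and 6.33%. With those libraries left out, the difference came to -1.89 points with an exact p of 0.00476. With all 12 libraries it was also called among single-copy clusters, at -3.94 points with an exact p of 0.0101, and among clusters shared with another library of the protein, at -3.91 points with an exact p of 0.0121. For scale, 6.33% of the intron sequence of protein-coding genes lay within this distance.

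Per nucleotide, clusters were denser near transcript ends than in deeper intron sequence in every library, while near splice sites libraries lay on both sides of the deeper level. Density is given as clusters per Mb of such sequence per 10000 clusters of the library. The sequence is that of all protein-coding genes, expressed in HepG2 or not, and the same sequence was used for single-copy clusters. Densities were therefore not matched by gene, nor scaled to RNA level or to how much of the sequence was itself single-copy. In IGF2BP libraries it averaged 5.97 ± 2.06 near transcript ends, 2.50 ± 0.742 near transcript starts, 1.12 ± 0.271 near 5' splice sites and 0.954 ± 0.160 near 3' splice sites (SD, n = 8), against 1.40 ± 0.271 in deeper intron. In METTL1 and WDR4 libraries the same densities were 6.11 ± 1.31, 7.42 ± 1.48, 3.54 ± 0.564 and 2.72 ± 0.169 (SD, n = 4), against 2.96 ± 0.220 in deeper intron.

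The geometric mean density near transcript ends was 4.09 times that of deeper intron in IGF2BP libraries and 2.03 times in METTL1 and WDR4 libraries. All 12 libraries lay above 1, with an exact sign-flip p of 0.000488 and an adjusted p of 0.00195 over the 4 kinds of edge. The ratio was higher in every IGF2BP library than in every other library, and the class difference of 1.01 on the log2 scale had an exact permutation p of 0.00202, adjusted 0.00808. Near transcript starts the ratio was 1.74 and 2.48, above 1 in 11 of 12 libraries, with an exact p of 0.000977 and an adjusted p of 0.00195, and the class difference had an exact p of 0.0889. Among single-copy clusters the ratios near transcript starts were 1.69 and 4.01, and there the class difference had an exact p of 0.0303, adjusted 0.0364, but an exact p of 0.0667 without the bio2 libraries. These density comparisons were added after the data had been seen.

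Near 3' splice sites the density was below that of deeper intron, at a log2 ratio of -0.41 over the 12 libraries, with an exact sign-flip p of 0.0156 and an adjusted p of 0.0208. Near 5' splice sites the log2 ratio was -0.14, with an exact p of 0.413. The 6 IGF2BP libraries without the bio2 label lay below 1 at both splice sites, and both bio2 libraries lay above 1 at both. Without the bio2 libraries the IGF2BP ratio was 0.649 at 5' and 0.570 at 3' splice sites, and both class differences had an exact p of 0.00476, against 0.0990 and 0.117 with all 12. Among single-copy clusters the deficit near 3' splice sites was not called, at a log2 ratio of -0.10 with an exact p of 0.570. On those clusters all 4 METTL1 and WDR4 libraries lay above 1 at both splice sites, with ratios of 1.95 and 1.37, and the IGF2BP ratios were 1.01 and 0.773. The single-copy class differences had exact p-values of 0.0101 and 0.0364, each adjusted to 0.0364. Near transcript ends the single-copy ratios were 4.74 and 2.86, above 1 in 12 of 12 libraries, with an exact sign-flip p of 0.000488 and an adjusted p of 0.00195. How much sequence near edges and deeper is itself single-copy was not measured, so the single-copy ratios were not adjusted for it.

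**Figure D2:**
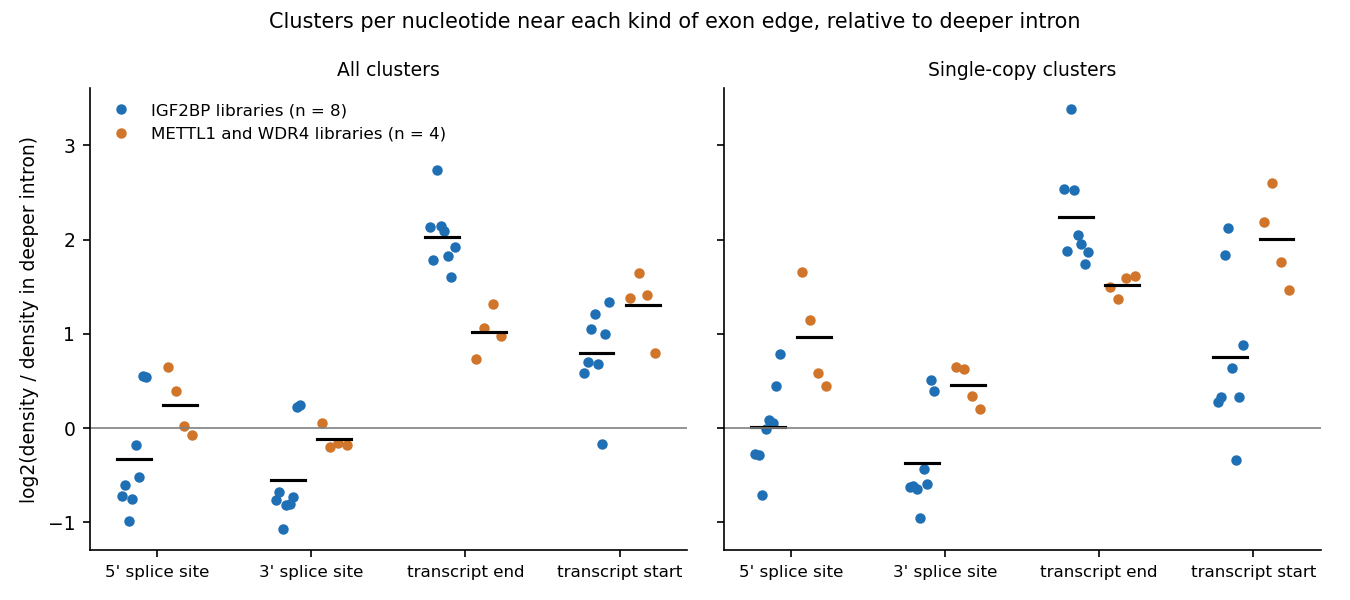
The log2 ratio of cluster density near each kind of exon edge to that of deeper intron, one point per library and a bar at the class mean, for all clusters and for single-copy clusters. Points for transcript ends lie above 0 in all 12 libraries in both panels, while points for splice sites fall on both sides of 0.

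Distance within the 200 nt showed no narrow peak at the splice sites. In bins of 25 nt, IGF2BP density at 5' splice sites ranged from 0.526 in the first bin to 2.27 in the last, and at 3' splice sites from 0.574 to 1.43. METTL1 and WDR4 density ranged from 2.74 to 4.51 at 5' and from 2.20 to 3.81 at 3' splice sites. The first 25 nt at a 5' splice site, where U1 snRNP pairs, held 15 IGF2BP clusters and 40 clusters of METTL1 or WDR4. The first 25 nt at a 3' splice site, over the AG and the pyrimidine stretch, held 26 and 33.

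**Figure D3:**
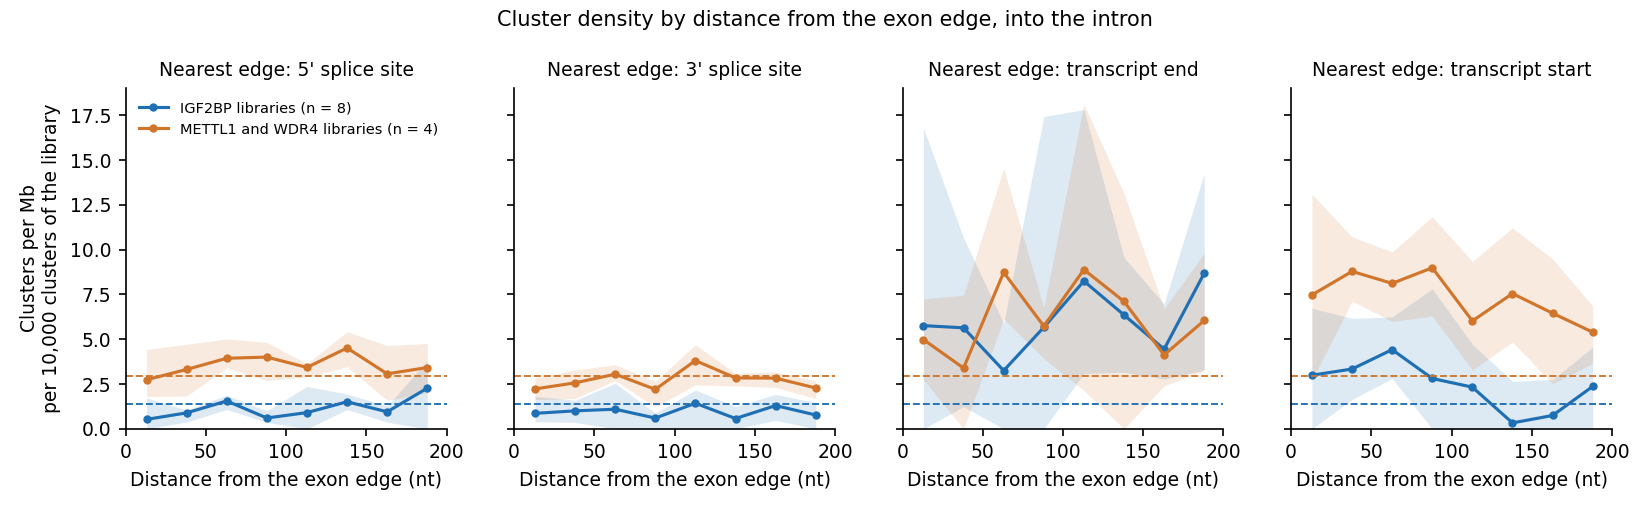
Cluster density, in clusters per Mb per 10000 clusters of the library, by distance in nt from each kind of exon edge into the intron. Lines are class means, shading spans the lowest to the highest library, and dashed lines give the class mean in deeper intron, 1.40 and 2.96.

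The median distance of the clusters from their edge was 100.75 nt ± 11.8 (SD, n = 8) for IGF2BP and 95.4 nt ± 5.41 (SD, n = 4) for METTL1 and WDR4, with an exact permutation p of 0.404. Among clusters whose nearest edge was a splice site, a split added later, IGF2BP clusters lay 14.9 nt farther out, with an exact p of 0.0202. At the limit, 197 clusters lay 176 to 200 nt from an edge and 209 lay 201 to 225 nt from one. Of the clusters at splice sites, the share on the 3' side was 45.2% ± 3.36 (SD, n = 8) for IGF2BP and 42.6% ± 4.45 (SD, n = 4) for METTL1 and WDR4, with an exact p of 0.305. It ran from 38.3% in IGF2BP3 replicate 1 to 48.3% in IGF2BP1 replicate 1, and METTL1, at 38.9% and 38.7%, lay below WDR4, at 45.9% and 47.1%.

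Few clusters ran across the exon edge. Of 1591 clusters, 82 (5.15%) overlapped an exon of their gene, and 55 of these were nearest to a transcript end or start. At splice sites 8 IGF2BP clusters and 19 METTL1 or WDR4 clusters crossed, 5 and 14 at the 5' side and 3 and 5 at the 3' side. The share per library was 4.60% ± 4.75 (SD, n = 8) and 4.92% ± 0.920 (SD, n = 4), with an exact p of 0.901. It reached 14.1% in IGF2BP2 replicate 2 and was 0 in IGF2BP3 replicate 2 and in bio2 replicate 2, where a count of 0 allows a share of up to 4.84% and 4.62%. The most frequent crossing site lay at a transcript start in GNAS, the gene of the stimulatory G protein alpha subunit, in 7 libraries. Its centre had up to 3110 copies in the genome, so its placement is uncertain. ACOT9, a mitochondrial acyl-CoA thioesterase gene, and PTPN18, a tyrosine phosphatase gene, followed with 6 libraries each. The ACOT9 centre had 5 copies. At a 5' splice site, GLRX2, the gene of mitochondrial glutaredoxin, had a crossing cluster in 3 libraries, at centres with 166 to 439 copies. The host introns had a median length of 2681 nt ± 704 (SD, n = 8) and 2033 nt ± 261 (SD, n = 4), with an exact p of 0.113. Without the bio2 libraries the difference was 975 nt with an exact p of 0.00952, and without bio2 replicate 1 alone it was 802 nt with an exact p of 0.0394.

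The classes differed in the share of clusters with a CAUH motif, while uridine content did not differ past the threshold. Adenine and guanine content, given below, also separated the libraries of the classes. The share of clusters whose interval, widened by 10 nt, held CAUA, CAUC or CAUU on its own strand was 67.9% ± 10.1 (SD, n = 8) for IGF2BP and 39.1% ± 6.79 (SD, n = 4) for METTL1 and WDR4. Every IGF2BP library, from 54.1% in IGF2BP2 replicate 2 to 85.5% in IGF2BP3 replicate 2, lay above every METTL1 and WDR4 library, from 31.6% to 46.4%. The difference of 28.8 points had an exact permutation p of 0.00202 and an adjusted p of 0.00808. With proteins as units it was 26.7 points with an exact p of 0.10. Deeper intron clusters held the motif in 72.6% ± 13.04 (SD, n = 8) and 42.7% ± 4.17 (SD, n = 4). Median cluster width near edges was 43.0 nt ± 5.79 (SD, n = 8) and 36.1 nt ± 3.17 (SD, n = 4), and wider intervals have more room for a motif. The motif share was not recomputed among wider clusters alone.

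By kind of edge, the motif share in IGF2BP libraries averaged 69.6% at 5' and 69.6% at 3' splice sites, 78.1% at transcript ends and 50.7% at transcript starts. In METTL1 and WDR4 libraries it averaged 36.2%, 42.9%, 51.3% and 33.2% in the same order. The differences between kinds were not tested. Uridine content was 30.3% ± 1.68 (SD, n = 8) and 29.5% ± 3.50 (SD, n = 4), with an exact p of 0.606. Guanine content was 8.92% ± 3.88 for IGF2BP and 19.1% ± 5.49 for METTL1 and WDR4, and adenine content was 24.995% ± 2.41 and 15.7% ± 1.20 (SD, n = 8 and 4). By library, guanine ran from 3.00% to 12.6% for IGF2BP and from 13.3% to 24.1% for METTL1 and WDR4. Adenine ran from 22.2% to 29.2% and from 14.3% to 17.2% in the same order. CAUH holds adenine and no guanine, and its share was not adjusted for base content. Within 50 nt of a 3' splice site, uridine was 32.2% ± 4.38 in 56 IGF2BP clusters and 32.1% ± 3.27 in 69 METTL1 and WDR4 clusters, and within 50 nt of a 5' splice site guanine was 11.6% ± 9.60 and 29.6% ± 8.27 (SD over 8 and 4 libraries). These base contents were not tested between classes.

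Clusters near exon edges came more often from sequence found once in the genome than deeper intron clusters of the same library. The single-copy share, taken over clusters of at least 20 nt, was 71.4% ± 11.03 (SD, n = 8) near edges and 59.6% ± 13.2 deeper in IGF2BP libraries, and 63.6% ± 2.06 (SD, n = 4) and 40.0% ± 5.22 in METTL1 and WDR4 libraries. All 12 libraries had the higher share near edges, by 15.8 points on average, with an exact sign-flip p of 0.000488 and an adjusted p of 0.00586. The step was 11.9 points for IGF2BP and 23.6 points for METTL1 and WDR4, and this difference of -11.7 points had an exact permutation p of 0.00404, adjusted to 0.0121 over 3 such tests. The single-copy share near edges did not differ between the classes past the threshold, with an exact p of 0.192. The single-copy share of the intron sequence itself, near edges and deeper, was not measured, so the step was not adjusted for it.

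**Figure D4:**
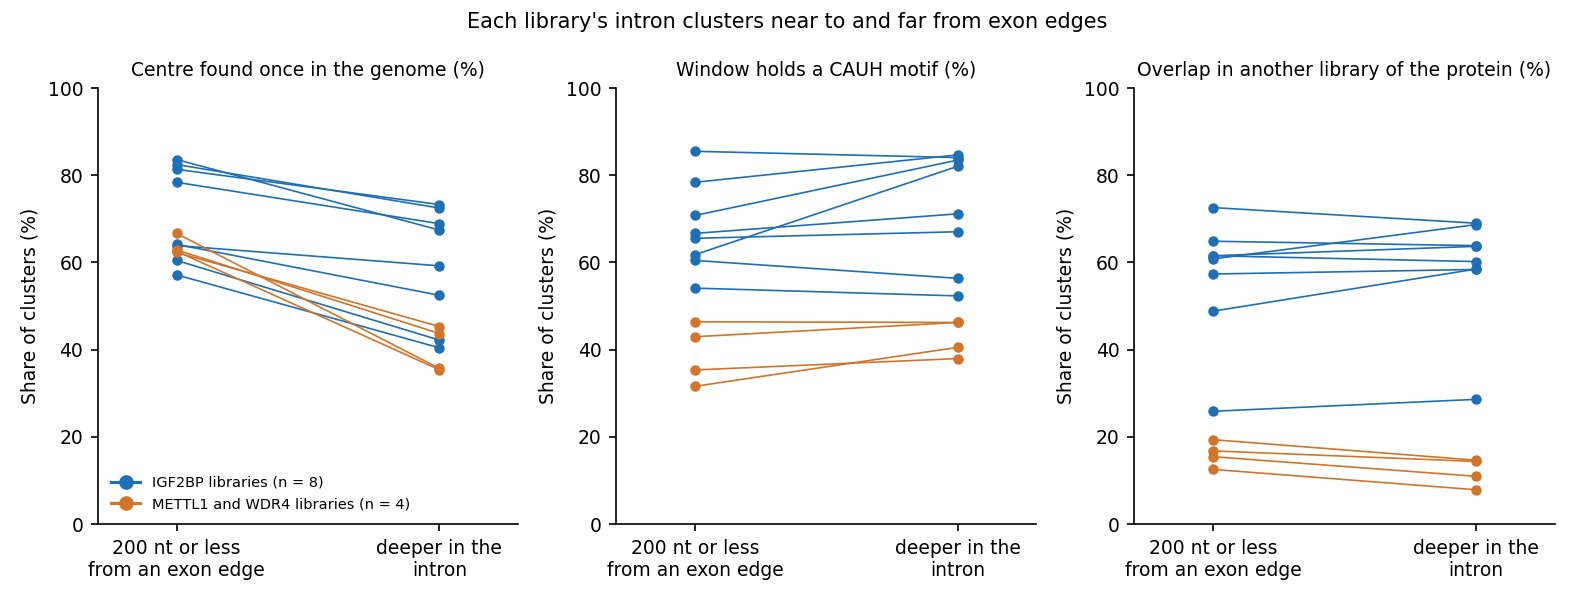
For each library, the share of intron clusters near an exon edge and deeper in the intron, in percent, whose central 20 nt occur once in the genome (left), whose window holds CAUH (middle) and that overlap a cluster of another library of the same protein (right). All 12 lines fall from left to right in the left panel, while the others run in both directions among the IGF2BP libraries.

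The same clusters were found again within a protein more often for IGF2BP than for METTL1 and WDR4, near edges as elsewhere. Of IGF2BP clusters near edges, 56.7% ± 14.1 (SD, n = 8) overlapped a cluster of another library of the protein, against 58.9% ± 12.9 of deeper intron clusters and 74.8% ± 11.96 of clusters with their midpoint in an exon. For METTL1 and WDR4 the shares were 16.0% ± 2.84, 11.98% ± 3.20 and 34.5% ± 5.47 (SD, n = 4). The lowest IGF2BP library near edges, at 25.9%, lay above the highest of the others, at 19.4%, and this was not tested. IGF2BP3 has 4 libraries and therefore more chances of an overlap. The difference between near and deeper clusters averaged -0.104 points over all 12 libraries, with an exact sign-flip p of 0.940. It was above 0 in all 4 METTL1 and WDR4 libraries, from 2.42 to 4.70 points, and in 3 of 8 IGF2BP libraries. Among clusters nearest to a splice site, a split added later, the difference was -4.36 points with an exact p of 0.0366.

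Most sites were seen once. Of 1021 sites, 788 (77.2%) had clusters in 1 library and 31 in 6 or more. IGF2BP1 had 208 sites, of which 96 (46.2%) were in both libraries, and IGF2BP3 had 171, of which 71 (41.5%) were in at least 2 of its 4. IGF2BP2 had 105 sites with 20 (19.0%) in both libraries, METTL1 384 with 28 (7.29%), and WDR4 435 with 43 (9.89%). Transcript ends or starts were the nearest edge of 23.6% of sites in 1 library, 33.5% of those in 2 or more and 48.4% of those in 6 or more. These shares describe the sites and were not tested.

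The 2 libraries of IGF2BP1 shared 63.2% of their clusters near edges, those of IGF2BP2 33.6%, those of METTL1 13.8% and those of WDR4 18.0%. The 6 pairs of IGF2BP3 libraries shared 17.6% to 63.2%. Pairs of IGF2BP1 and IGF2BP2 shared 33.8% on average, while pairs of METTL1 and WDR4 shared 11.3%. By gene, 301 genes had a cluster in an IGF2BP library and 686 in a METTL1 or WDR4 library, and the 102 in both made up 33.9% of the former and 14.9% of the latter. In all, 774 genes had 1 site, and A2M had the most with 5.

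The site in most libraries lay in SERPINA5, the gene of protein C inhibitor, 140 nt from a 5' splice site on chr14:94590934-94591130 on the plus strand of hg38. It had clusters in 11 libraries and its centre had up to 458 copies in the genome, so the placement of its reads is uncertain. MDM2, the gene of the ubiquitin ligase that targets p53, had 2 recurrent single-copy sites upstream of 3' splice sites, with clusters in 9 and 7 libraries. The first, 192 nt from the exon, had clusters in all 4 METTL1 and WDR4 libraries. Its single-copy label rested on its bio2 clusters alone. Its other clusters, including those of METTL1 and WDR4, were too short for copies to be counted. ZNF219, a zinc finger gene, had clusters in 9 libraries 66 nt from a 5' splice site, and FNBP1, the gene of a membrane-bending F-BAR protein, in 9 libraries 172 nt from a 3' splice site. COG8, a Golgi tethering gene, had clusters in 8 libraries at a centre with up to 1053 copies. MAN1A2, a Golgi mannosidase gene, had clusters in 7 libraries, 90 nt from a transcript end.

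Several of these sites lacked clusters in the bio2 libraries alone among the IGF2BP libraries. SGO1, ZNF219, METTL8, FNBP1 and TLK1 had clusters in all 6 IGF2BP libraries without the label and in neither bio2 library. Other sites, such as those of AIG1 and MATR3, had clusters in both bio2 libraries. No test was made between the IGF2BP3 libraries with and without the label, since the labels do not say in what they differ.

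**Figure D5:**
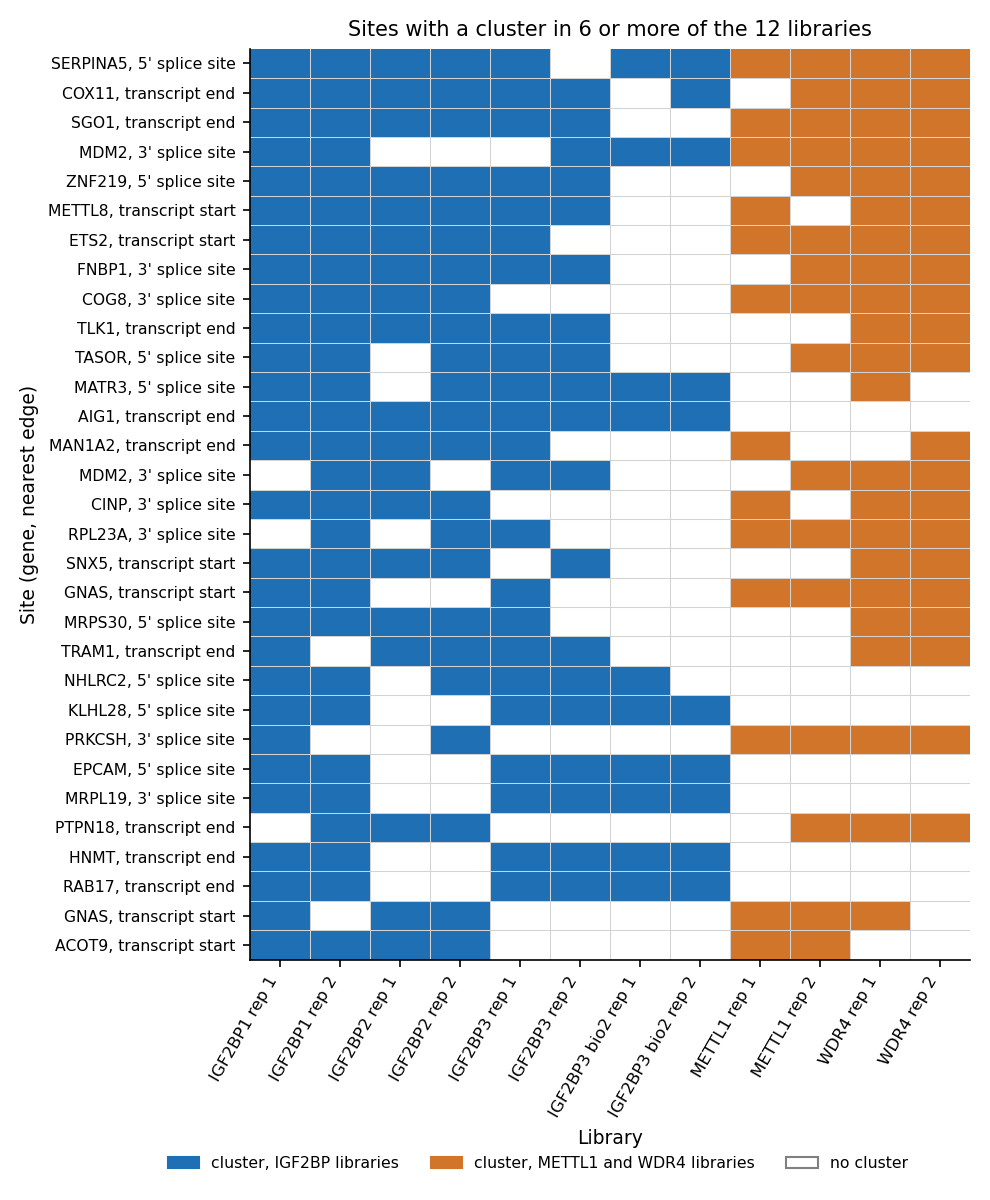
The 31 sites with clusters in 6 or more libraries, one row per site with its gene and kind of nearest edge, and one column per library. A filled cell is a library with a cluster of this kind at the site. Sites at the top have clusters in both classes, while AIG1, NHLRC2, KLHL28, EPCAM, MRPL19, HNMT and RAB17 have them in IGF2BP libraries alone.

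Genes were named by the number of sites found in at least 2 libraries of a protein, up to 5 genes each. For IGF2BP1 these were DNAJC22, A2M, COG8, GLRX2 and MRPL19, with 2 such sites each. The centres of the GLRX2 clusters over all libraries had 50 to 3490 copies. DNAJC22, a J-domain protein gene, had 4 sites in all for IGF2BP1, and the centres of its clusters over all libraries had 23 to 30170 copies in the genome. A2M, the gene of the secreted protease inhibitor alpha-2-macroglobulin, had 5 single-copy sites over all libraries, 4 of them upstream of a 3' splice site at 89 to 154 nt. The A2M site at chr12:9110132-9110176 on the minus strand had clusters in both IGF2BP1 libraries, in both IGF2BP3 libraries without the bio2 label and in METTL1 replicate 2. A different A2M site, at chr12:9115575-9115606, had clusters in both bio2 libraries and in WDR4 replicate 1.

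MRPL19, a mitochondrial ribosomal protein gene, had neighbouring sites 69 and 20 nt upstream of the same 3' splice site. The first had clusters in 6 IGF2BP libraries and the second in 4, all of IGF2BP1 or IGF2BP3. For IGF2BP3 the genes were A2M, MDM2, MRPL19 and TLK1 with 2 sites each, and HNRNPC with 1. HNRNPC, the gene of hnRNP C, which binds U-rich stretches in introns, had a site 120 nt from a 5' splice site with clusters in 5 libraries. For IGF2BP2 the genes were CINP, COG8, ACOT9, AIG1 and COX11 with 1 site each. The CINP site 43 nt from a 3' splice site, in a gene of a CDK2-interacting protein, had clusters in 7 libraries and up to 632 copies.

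For METTL1 the genes were AGBL5 and GNAS with 2 sites each, and DLC1, ETS2 and MDM2 with 1. AGBL5, a gene of a tubulin deglutamylase, had a site 142 nt from a 3' splice site with clusters in both METTL1 libraries and in no other. Its other site, 138 nt from a transcript start, had clusters in all 4 METTL1 and WDR4 libraries and in 1 bio2 library. GNAS had adjacent sites at the same transcript start with clusters in 7 and 6 libraries, and the centre of the first had up to 3110 copies. For WDR4 the genes were MDM2 with 2 sites, and CINP, ETS2, GNAS and PIK3C2A with 1. The PIK3C2A site, in the gene of a class II phosphoinositide kinase, lay 91.5 nt from a 5' splice site and had clusters in both WDR4 libraries alone.

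Lists of genes tied to splicing and to liver were read against all 20007 protein-coding genes, of which 885 (4.42%) had a cluster near an exon edge. Of 30 splicing factor genes, 3 had one. These were HNRNPC, PTBP1 with 1 METTL1 cluster, and U2AF2 with 1 WDR4 cluster. Of 7 genes known for detained introns, RBM39 alone had any, with 4 clusters at 3 sites, 1 of them in both bio2 libraries. The RBM39 clusters at the other sites had centres with 4193 and 10554 copies. Of 88 ribosomal protein genes 10 had clusters, among them RPL23A in 7 libraries, RPS20 in 4 at a centre with up to 30769 copies, and RPS6 74 nt from a 3' splice site in both bio2 libraries. All clusters of RPL22, RPL30, RPL34, RPS15A, RPS20 and RPS27L had centres with 20 to 85849 copies, so their placement is uncertain.

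Of 18 genes of secreted liver proteins, 6 had clusters, namely AFP, AHSG, APOB, APOH, C3 and TF. The APOH cluster had a centre with 90 copies, and C3 centres had up to 132. APOB, the gene of apolipoprotein B, had a site 92 nt from a 5' splice site in both IGF2BP1 libraries and METTL1 replicate 1, and another 65 nt from a 5' splice site in both bio2 libraries. AHSG, the gene of fetuin-A, had 3 sites, 1 of them in both bio2 libraries. AFP, the gene of alpha-fetoprotein, had a site 170 nt from a 3' splice site in 3 METTL1 and WDR4 libraries. C3 had 4 sites, each in 1 METTL1 or WDR4 library. The files hold no RNA level, so these counts were not scaled to the abundance of the transcripts, and the lists were not tested. In IGF2BP libraries 46.0% ± 9.84 (SD, n = 8) of the clusters near edges lay in a gene that also had an exon cluster in the same library, against 26.3% ± 3.06 (SD, n = 4) in METTL1 and WDR4 libraries. Among deeper intron clusters the same shares were 40.6% ± 8.15 (SD, n = 8) and 21.5% ± 3.08 (SD, n = 4). An exon cluster within 200 nt was rare, at 1.62% ± 1.94 and 1.23% ± 0.355 of the clusters near edges.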

How the data were processed

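Per the study's methods and the submitters' processing notes, the authors trimmed and collapsed the reads before alignment (Bowtie) and took clusters from PARalyzer. The notes name hg38. The deposited files list the interval and strand of each cluster in one library, a unit of its own with no count or score, so the depth behind a cluster is unknown and no read was reprocessed. Starts were read as counted from 1, since G, after which RNase T1 cuts, stood before the first base in 74.2% to 94.9% of a library's clusters and at it in 0.686% to 5.28%. Python 3.11.15, NumPy 2.4.6, pandas 2.3.3 and numba 0.67.0 were used.

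Clusters were classed by midpoint against GENCODE release 44. An edge was a splice site when an intron of the gene adjoined it. Sequences came from the hg38 reference. Copies of the central 20 nt were counted on both strands of chromosomes 1 to 22, X, Y and M, alternate contigs left out, and 80 clusters shorter than 20 nt had none. Motif windows were widened by 10 nt. Libraries were the units of two-sided exact permutation tests over 495 arrangements (8 IGF2BP against 4 METTL1 and WDR4) and of exact sign-flip tests over 12 libraries, with a threshold of 0.05 and Benjamini-Hochberg adjustment over 12 comparisons. Genes were ranked per protein by sites in at least 2 of its libraries, then by all sites, then by symbol, and up to 15 merged sites in at least 6 libraries were described. The clusters and the gene lists were chosen with earlier results of these data known. Replicate numbers did not pair the libraries, with 15 correlations of differences between replicates from -0.0853 to 0.0353. The code was tested on simulated data.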

Additional observations from a re-analysis of the deposited data

Results flagged for a closer look

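Of 26 groups of values searched for a library far from the others, of which chance flags about 1 in 20, 2 had one. METTL1 replicate 1 had a single-copy share near exon edges of 66.7%, above the other METTL1 and WDR4 libraries, which lay from 62.3% to 62.9%. WDR4 replicate 1 had a difference in reproducibility between near and deeper intron clusters of 2.42 points, below the 4.50 to 4.70 points of the other METTL1 and WDR4 libraries.

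The step from deeper to near clusters differed between the protein classes in 3 measures, each by an exact permutation test with adjustment over the 3. For reproducibility the IGF2BP step minus the METTL1 and WDR4 step was -6.26 points, with an exact p of 0.0263 and an adjusted p of 0.0283. For uridine content it was 2.07 points, with an exact p of 0.0283 and an adjusted p of 0.0283. For the single-copy share it was -11.7 points, with an exact p of 0.00404 and an adjusted p of 0.0121.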

How the results depend on the processing

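Differences below are IGF2BP minus METTL1 and WDR4, or near minus deeper clusters. The share of clusters near edges and the CAUH share kept their direction and call in all settings run for them except proteins as units. There they were -1.70 and 26.7 points with the smallest exact permutation p of 0.10. The single-copy step kept both in all settings run for it, which did not include proteins as units or a block by replicate number. The CAUH share and the single-copy step were not run without retained-intron transcripts or with edges of protein-coding transcripts. Nor were they run with clusters of at least the median width. Leaving out single libraries gave -1.77 to -1.64 points for the first, 26.3 to 31.3 for the second and 14.4 to 16.8 for the step. The share of intron clusters near edges became called with single-copy clusters (-3.94 points), reproducible clusters (-3.91) and without the bio2 libraries (-1.89), and turned to 0.755 with clusters of at least the median width; leaving out single libraries gave -1.43 to -0.666. The 3' side share turned to -0.634 points without retained-intron transcripts, -0.590 with edges of protein-coding transcripts and -5.71 with reproducible clusters, and ranged from 1.27 to 4.06 without single libraries. Median distance turned to -1.81 nt at a limit of 100 nt and was called at 14.9 nt at splice sites alone, an alternative added after seeing the data. Exon crossing turned to 0.968 points without the bio2 libraries and 0.865 with proteins as units, and ranged from -1.68 to 0.337 without single libraries. Intron length was called at 975 nt without the bio2 libraries, turned to -131 nt with reproducible clusters and ranged from 518 to 802 nt without single libraries. Uridine content turned to -0.0466 points at a limit of 500 nt and ranged from -0.160 to 2.29. The reproducibility step turned positive at 500 nt (1.05 points), with exons on either strand (0.852), without retained-intron transcripts (0.164), with single-copy clusters (1.26), wide clusters (0.619), a larger minimum overlap (0.0496) and without the bio2 libraries (0.196), was called at -4.36 points at splice sites alone, and ranged from -0.541 to 0.764. The single-copy share ranged from 6.09 to 9.87 points, median distance from 3.13 to 7.77 nt, and the uridine step from -0.490 to -0.0496 without single libraries. The causes were not tested.

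With the replicate number as a block the difference in the share of clusters near edges was -1.70 points with an exact permutation p of 0.00444, and that in CAUH 28.8 points with an exact p of 0.00444. The block was run for the differences between classes alone, not for the near minus deeper steps, and changed no call among them. Depth per cluster is unknown, so an absent cluster may be a matter of depth.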
